A study of Homo sapiens with 24 samples.

Results

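The genes described here are 48 human genes that license, start and carry out DNA replication or drive cells from G1 into S phase. They were chosen by symbol: an entry of the deposited table counted when its name, split at commas, included a listed symbol and it reached at least 10 fragments in 3 or more libraries. All 48 symbols were found and all 48 passed, out of 20162 entries tested. RNA was sequenced in 24 libraries from 2 derivatives of the breast cancer line T47D, a luminal line that carries oestrogen receptor. T47D-co is labelled PR-positive, meaning that it carries the progesterone receptor, and T47D-Y is labelled PR null. Cells of each line were kept for 18 hours with 20 IU per ml of interferon-alpha (IFN) or with water. R5020, a synthetic progestin, at 10 nM or the ethanol it was dissolved in (EtOH) followed for 6 hours. The 8 groups were EtOH and water, R5020 and water, EtOH and IFN, and R5020 and IFN in each line, with 3 biological replicates per group. All groups shared 1 growth medium with serum and insulin. Each receptor state is represented by 1 derivative, so a difference between the lines cannot be told apart from other differences between these derivatives.

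Before S phase, the origin recognition complex, CDC6 and CDT1 load the MCM helicase onto DNA in an inactive form, a step called licensing. The kinases CDC7-DBF4 and cyclin E-CDK2 then allow CDC45 and the GINS complex to join it, and polymerases with their clamp and clamp loader copy the opened strands. Many of these genes are textbook targets of the E2F transcription factors, which are released when cyclin D and cyclin E kinases phosphorylate the retinoblastoma protein. Progestins are known to push T47D cells through S phase for a limited time before arresting them in G1.

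Values are in scaled fragments: estimated fragments per gene and library after 1 common scaling of the 24 libraries. A library held 14137600 to 33602090 estimated fragments in total (median 18381454). PGR, the progesterone receptor gene, held 418.3 to 719.1 scaled fragments over the T47D-Y libraries and 11810 to 27960 over those of T47D-co. PGR was lower with R5020 in both lines. In T47D-Y with water it held 649.6 to 719.1 with EtOH and 446 to 482.9 with R5020. In T47D-co with water it held 25170 to 27960 with EtOH and 12780 to 13720 with R5020. All 7 luminal epithelial markers were present, with a summed level of 58600 to 100500 scaled fragments, against 1.1 to 19.6 for the 2 endothelial markers found and 154.1 to 473.1 for the fibroblast marker COL1A1. The 2 macrophage markers found summed to 4278 to 5933, but CD68 lies in a merged entry with EIF4A1 (4246 to 5866), and CSF1R held 25 to 67.44. None of these markers was at 0 in all libraries. Libraries of 1 group correlated at 0.983 to 0.988 across genes, and the highest correlation between groups, 0.988, was as high. Mitochondrial transcripts took 0.942 to 1.07% of fragments in 4 libraries and 3.17 to 4.75% in the remaining 20. The 4 are all water libraries: replicate 1 of T47D-Y with EtOH, replicates 1 and 2 of T47D-Y with R5020, and replicate 2 of T47D-co with EtOH. Counts that change by more than 1.5 times without those 4 are also given without them, where more than 1 library per group is left. The calls that end without them are named for genes whose values in every library are given.

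The 48 genes were well covered. Single values ran from 85.37 scaled fragments for CCNE1 to 11890 for the entry that holds GINS2, and the lowest unscaled value was 72 fragments. Of the 48, 39 have an entry of their own, and those of MCM5 and E2F3 add a non-coding name only. The entries of GINS2, CHEK1, PRIM1, POLE, POLD1, FEN1 and CHAF1B also hold another protein-coding gene (C16orf74, STT3A, NACA, 4 genes including ANKLE2, SPIB, FADS2 and MORC3 respectively), so their values are those of the merged entry. Per kilobase of annotated exon, and among the 41 entries with no other protein-coding gene, untreated T47D-co held most of PCNA, the sliding clamp (1708 scaled fragments per kb), then of MCM3 (861) and the thymidine kinase TK1 (788). It held least of GINS3 (21.95) and CCNE1 (37.49).

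R5020 raised nearly all of these genes in T47D-co. Among libraries given water, 46 of 48 were called higher and 0 lower, where called means a limma Benjamini-Hochberg adjusted p under 0.05 over all entries tested. Of all 20162 entries, 56.5% were called in this comparison, 26.6% higher and 30.0% lower. The median log2 fold change was 0.48 over the 48 genes and -0.04 over all entries. In 46 of the 48 genes the 3 R5020 libraries all lay above the 3 EtOH libraries, against 28.9% of all entries. All 41 entries that hold no other protein-coding gene were called higher. The rises were mostly moderate: 23 genes moved by at least 0.5 and 6 by at least 1.0 on the log2 scale. CHAF1B (-0.05 ± 0.05 SE) and POLE (0.04 ± 0.03) were not called, and both sit in merged entries. Summed over the 48, the libraries held 87882 to 89431 scaled fragments with EtOH and 122260 to 124140 with R5020. In bulk RNA, a larger share of cells in S phase and more RNA of these genes per cell cannot be told apart. Markers moved in the same libraries. The 7 luminal markers summed to 90060 to 90610 scaled fragments with EtOH and 61770 to 64050 with R5020, and 5 of 7 were called lower (median -0.50): FOXA1 (-1.60), GATA3 (-0.82), ESR1 (-0.78), KRT18 (-0.50) and KRT8 (-0.23). The 2 macrophage markers summed to 4278 to 4879 with EtOH and 5497 to 5933 with R5020, and CSF1R (0.88) and the entry of CD68 (0.28) were called higher. COL1A1 was called lower (-0.41), and the endothelial marker VWF was not called, though it was after quantile normalization (1.71). The part of these markers in the result was not tested. Scaling by total fragments instead moved the median of all entries to -0.14, and 39 genes were then called higher and 1, CHAF1B, lower. Quantile normalization gave 42 higher and 1, POLE, lower. Over all entries total-fragment scaling gave 4215 higher and 7535 lower, and quantile normalization 5064 and 6174.

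**Figure D1:**
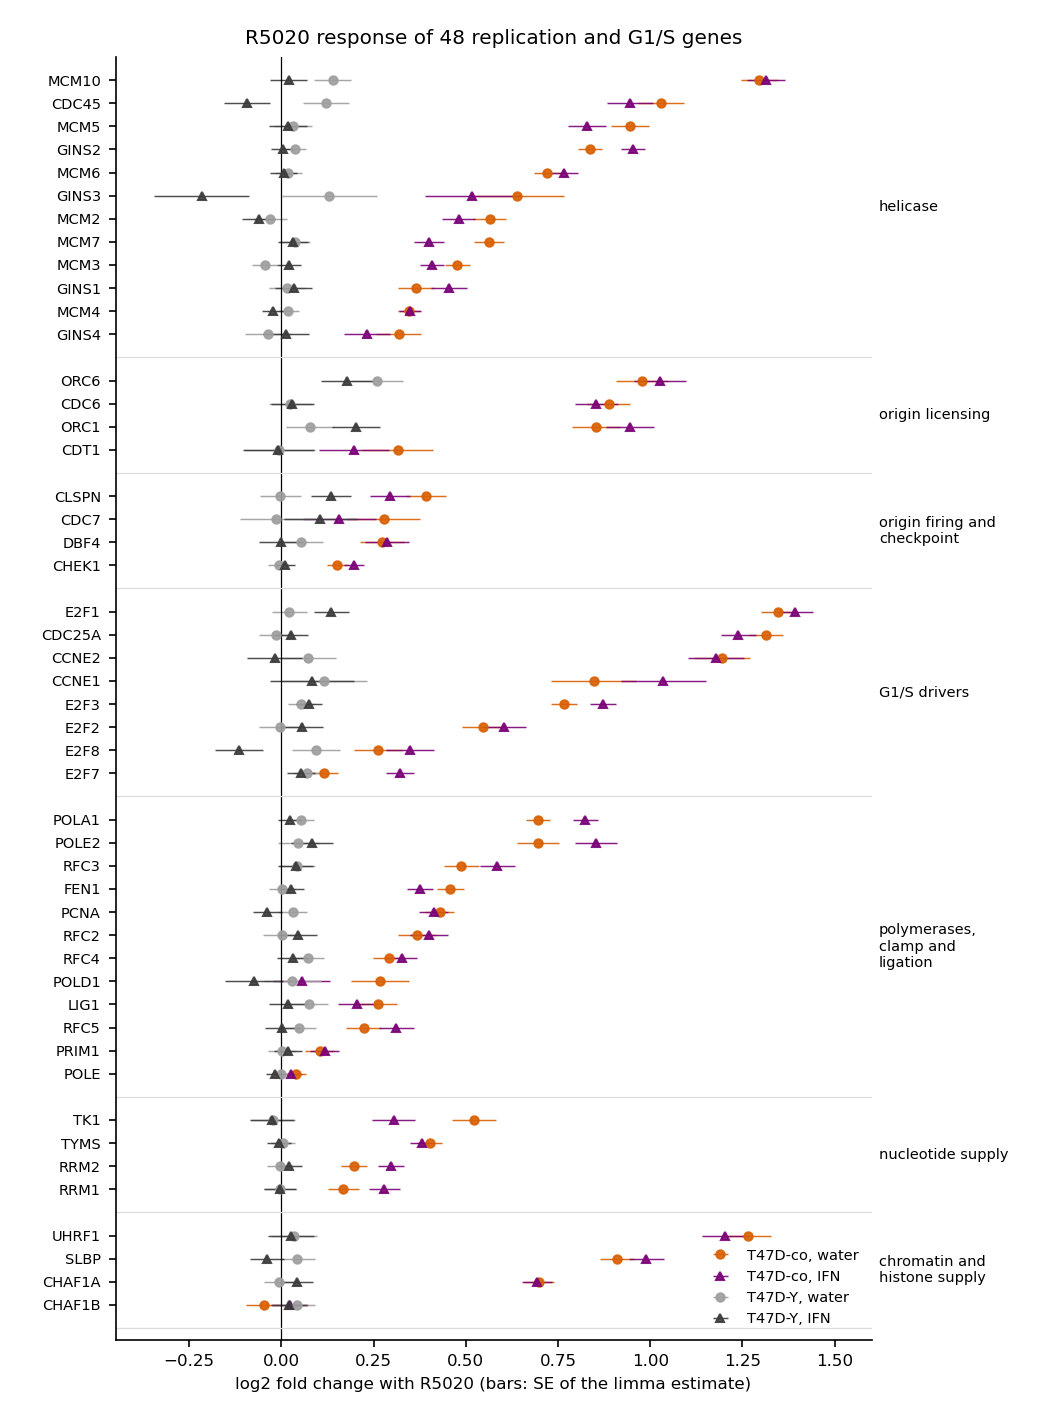
Log2 fold change with R5020 (x axis, bars are the SE of the limma estimate) for each of the 48 genes, grouped by role, in 4 comparisons of 3 against 3 libraries. Orange circles and purple triangles (T47D-co with water and with IFN) lie to the right of 0 for nearly every gene, up to 1.35 and 1.39 for E2F1, while grey and black symbols (T47D-Y) lie near 0.

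All 8 genes grouped as drivers of the G1/S transition were called higher, with a median log2 fold change of 0.81. The group includes E2F7 and E2F8, which are repressors. E2F1 encodes the activator E2F that is itself induced at G1/S. It lies on chr20:32263489-32274210 (GRCh37, also called hg19, as are all gene positions here). E2F1 held 1142, 1137 and 1129 scaled fragments in T47D-co with EtOH and water and 2909, 3003 and 2763 with R5020 and water. The groups lay far apart, and the log2 fold change was 1.35 ± 0.05 (limma, adjusted p = 2.08e-18), the largest of the 48. CDC25A (chr3:48198636-48229892), the phosphatase that activates CDK2, held 443.6, 426.5 and 417.4 with EtOH and 1057, 1099 and 1049 with R5020, a rise of 1.31 ± 0.05. Again no library overlapped, and every R5020 library held more than 2 times the highest EtOH value. Cyclin E2, CCNE2, rose by 1.19 ± 0.08, but it shares a locus of 5 entries and the locus as a whole rose by 0.59. Cyclin E1, CCNE1, rose by 0.85 ± 0.12 and the activators E2F3 and E2F2 by 0.77 ± 0.04 and 0.55 ± 0.06. The atypical repressors E2F8 (0.26 ± 0.07) and E2F7 (0.12 ± 0.04) moved least in this role. E2F7 was not called after total-fragment scaling (0.01) or quantile normalization (0.07).

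Since these genes moved together, the promoters of the members in RefSeq (GRCh38.p14) were searched for words bound by E2F. A promoter was taken as 250 bases before to 50 bases after the annotated start, and 43 of the 48 genes matched. The words TTTGGCGC, TTTCCCGC, TTTCGCGC and TTTGCCGC were sought on both strands, and words that overlap were each counted. At least 1 word lay in 22 of 43 promoters (51.2%), against 4.4% of 14896 protein-coding promoters and 4.9% of the 11113 among them that were tested here. The median R5020 log2 fold change in T47D-co with water was 0.56 over the 22 with a word and 0.29 over the 21 without, given as a description. Those without a word include the merged entries of CHEK1, PRIM1, POLD1, FEN1 and CHAF1B. The word CCAAT lay in 58.1% of member promoters and 36.4% of all, GGGCGG in 76.7% and 59.5%, TTTGAA in 7.0% and 12.0%, and TGTTCT, a core word of steroid receptor elements, in 7.0% and 11.0%. Among the 11113 promoters of genes tested here the shares were 36, 66.8, 10.1 and 9.5% in this order. A split by CCAAT gave medians of 0.70 over the 25 members with it and 0.43 over the 18 without. With and without, the medians were 0.56 and 0.47 for GGGCGG, 0.27 and 0.50 for TTTGAA, and 0.39 and 0.53 for TGTTCT. Some genes with large rises held none of these 4 exact words in this window: MCM10, CDC45, ORC6, SLBP and ORC1. Other forms of an E2F site were not sought, so these promoters may still hold one. The promoters of CCNE2 and MCM5, which also rose strongly, were not among those matched. A match is not a binding site, and no binding was measured. The 250 bases before the start of the 3 single-gene members with a word and the largest rises, and of MCM6, which holds the most words, are shown 5′ to 3′ on the gene's strand, with the E2F words in capitals.
E2F1: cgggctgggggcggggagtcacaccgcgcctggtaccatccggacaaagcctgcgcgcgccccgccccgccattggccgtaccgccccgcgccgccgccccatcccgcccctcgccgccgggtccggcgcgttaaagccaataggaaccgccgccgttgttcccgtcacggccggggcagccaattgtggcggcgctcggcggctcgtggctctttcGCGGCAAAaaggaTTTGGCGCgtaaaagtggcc
CDC25A: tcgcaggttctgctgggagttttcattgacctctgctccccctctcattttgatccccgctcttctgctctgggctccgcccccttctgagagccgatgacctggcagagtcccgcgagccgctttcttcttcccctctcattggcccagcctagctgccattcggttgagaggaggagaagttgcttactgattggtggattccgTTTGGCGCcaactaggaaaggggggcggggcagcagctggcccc
UHRF1: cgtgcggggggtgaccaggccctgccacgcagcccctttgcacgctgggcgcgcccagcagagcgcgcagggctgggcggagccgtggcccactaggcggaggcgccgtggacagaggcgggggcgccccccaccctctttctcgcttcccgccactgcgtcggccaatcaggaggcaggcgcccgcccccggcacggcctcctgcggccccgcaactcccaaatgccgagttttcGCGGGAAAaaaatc
MCM6: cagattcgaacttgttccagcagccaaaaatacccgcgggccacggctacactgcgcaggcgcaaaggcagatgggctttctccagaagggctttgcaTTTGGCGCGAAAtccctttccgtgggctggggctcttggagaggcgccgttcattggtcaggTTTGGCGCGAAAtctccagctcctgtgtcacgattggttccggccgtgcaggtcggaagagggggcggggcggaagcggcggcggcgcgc
These stretches lie at chr20:33686386-33686635 (E2F1, minus strand), chr3:48188418-48188667 (CDC25A, minus), chr19:4909251-4909500 (UHRF1, plus) and chr2:135876444-135876693 (MCM6, minus) on GRCh38.p14. The words start 33 and 20 bases before the E2F1 start, 44 before that of CDC25A and 14 before that of UHRF1. In MCM6 each capital run holds 2 overlapping words on opposite strands, and the runs start 152 and 90 bases before the start.

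The 4 licensing genes were all called higher in T47D-co with water, with a median of 0.87. ORC6, a subunit of the origin recognition complex, held 263.7, 244.1 and 259.3 scaled fragments with EtOH and 495.2, 513.2 and 505.6 with R5020, a log2 fold change of 0.98 ± 0.07. CDC6, which loads MCM onto the origin complex, held 614, 622.4 and 633.7 with EtOH and 1152, 1139 and 1170 with R5020, a change of 0.89 ± 0.06. For both genes the R5020 libraries were tightly grouped at nearly double the EtOH level. ORC1, the largest subunit of the origin complex, rose by 0.85 ± 0.07. The MCM loader CDT1 rose less, by 0.31 ± 0.10, and its call was lost after total-fragment scaling (0.21, adjusted p = 0.0609).

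All 12 helicase genes were called higher, with a median of 0.60. MCM10 (chr10:13203554-13253104), which helps the helicase start to unwind, held 1165, 1230 and 1285 scaled fragments in T47D-co with EtOH and water and 3105, 2930 and 3001 with R5020. Its log2 fold change was 1.30 ± 0.05. CDC45, which turns MCM into an active helicase, held 536, 497.5 and 549.6 with EtOH and 1069, 1074 and 1087 with R5020, a change of 1.03 ± 0.06. Neither gene overlapped between the groups. The 6 subunits of the MCM2-7 ring did not move by equal amounts: MCM5 rose by 0.94 ± 0.05, MCM6 by 0.72 ± 0.04, MCM2 and MCM7 by 0.56 ± 0.05 and 0.56 ± 0.04, MCM3 by 0.48 ± 0.03 and MCM4 by 0.35 ± 0.03. The 4 GINS subunits ranged from 0.32 ± 0.06 (GINS4) to 0.84 ± 0.03 (the entry of GINS2).

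Genes of origin firing and the S-phase checkpoint were all 4 called higher, with a median of 0.27, the lowest of the 7 roles. CLSPN (chr1:36185819-36235568), the claspin that relays replication stress to CHK1, held 679.2, 670.2 and 668.3 scaled fragments with EtOH and 858.7, 866.8 and 924.2 with R5020, a change of 0.39 ± 0.06. CDC7, the origin-firing kinase, held 247.3, 242.7 and 209.7 with EtOH and 300.1, 270.4 and 276.8 with R5020, without overlap, a change of 0.28 ± 0.10 (limma adjusted p = 0.0195). Its call was lost after total-fragment scaling (0.17) and without T47D-co EtOH water replicate 3 (0.20, adjusted p = 0.12) or T47D-co R5020 water replicate 1 (0.23, adjusted p = 0.0841). DBF4, the partner of CDC7, rose by 0.27 ± 0.06, while its locus as a whole was not called (0.10, adjusted p = 0.0649). The checkpoint kinase CHEK1, merged with STT3A, rose by 0.15 ± 0.03 and was not called after total-fragment scaling (0.05) or quantile normalization (-0.04).

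Of the 12 polymerase, clamp and ligation genes 11 were called higher, with a median of 0.33. POLA1, the catalytic subunit of the polymerase that lays down primers, held 3702, 3692 and 3730 scaled fragments with EtOH and 6007, 5871 and 6150 with R5020, a change of 0.70 ± 0.03. POLE2, the second subunit of the leading-strand polymerase, held 691.8, 671.9 and 697.2 with EtOH and 1112, 1074 and 1155 with R5020, also 0.70 ± 0.06. Each rose by about the same factor with no overlap. The clamp PCNA rose by 0.43 ± 0.04, the entry of the flap nuclease FEN1 by 0.46 ± 0.04 and the ligase LIG1 by 0.26 ± 0.05. The clamp loader subunits RFC2 to RFC5 rose by 0.22 ± 0.05 (RFC5) to 0.49 ± 0.05 (RFC3). RFC5 shares its locus with another entry and held 37.4% of its fragments, and the summed locus was called lower (-0.09). Of the primase PRIM1 (0.10 ± 0.04, merged with NACA) the libraries overlapped, and its call was lost with either other scaling and without T47D-co EtOH water replicate 1 or T47D-co R5020 water replicate 1 or 3 (0.08 to 0.09).

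The 4 genes of nucleotide supply were all called higher, with a median of 0.30. TK1, the thymidine kinase of the salvage pathway, held 1402, 1495 and 1499 scaled fragments with EtOH and 2092, 2178 and 2043 with R5020, a change of 0.52 ± 0.06. TYMS, which makes thymidylate de novo, held 1212, 1263 and 1256 with EtOH and 1647, 1592 and 1689 with R5020, a change of 0.40 ± 0.03. It took 47.9% of the fragments of a locus of 5 entries, and that locus as a whole rose by 0.13. The ribonucleotide reductase subunits RRM2 (0.20 ± 0.04) and RRM1 (0.17 ± 0.04) rose less, and RRM1 was not called with either other scaling.

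In the role of chromatin and histone supply 3 of 4 genes were called higher. UHRF1 (chr19:4903092-4962165), which recruits the maintenance DNA methyltransferase to newly copied DNA, held 986.4, 1008 and 1049 scaled fragments with EtOH and 2377, 2467 and 2469 with R5020, a change of 1.26 ± 0.06. SLBP (chr4:1694527-1714282), which binds the stem-loop of histone mRNAs, held 1113, 1025 and 1015 with EtOH and 1968, 1902 and 2055 with R5020, a change of 0.91 ± 0.05. Both stood clear of their controls in all 3 libraries. CHAF1A, the large subunit of the chromatin assembly factor that deposits histones behind the fork, rose by 0.70 ± 0.04, against 0.28 for its locus of 5 entries. In all, 21 of the 48 genes share a locus with other entries, between which the authors' software divided fragments. Summed loci were called higher for 19 of these 21, lower for 1 (RFC5) and not called for 1 (DBF4). No share over all summed loci is given beside this count. The member's entry held from 16.1% (CCNE2) to 99.9% (CLSPN) of the fragments of its locus, so the sums also measure other entries. The other 27 genes are alone at their locus.

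**Figure D2:**
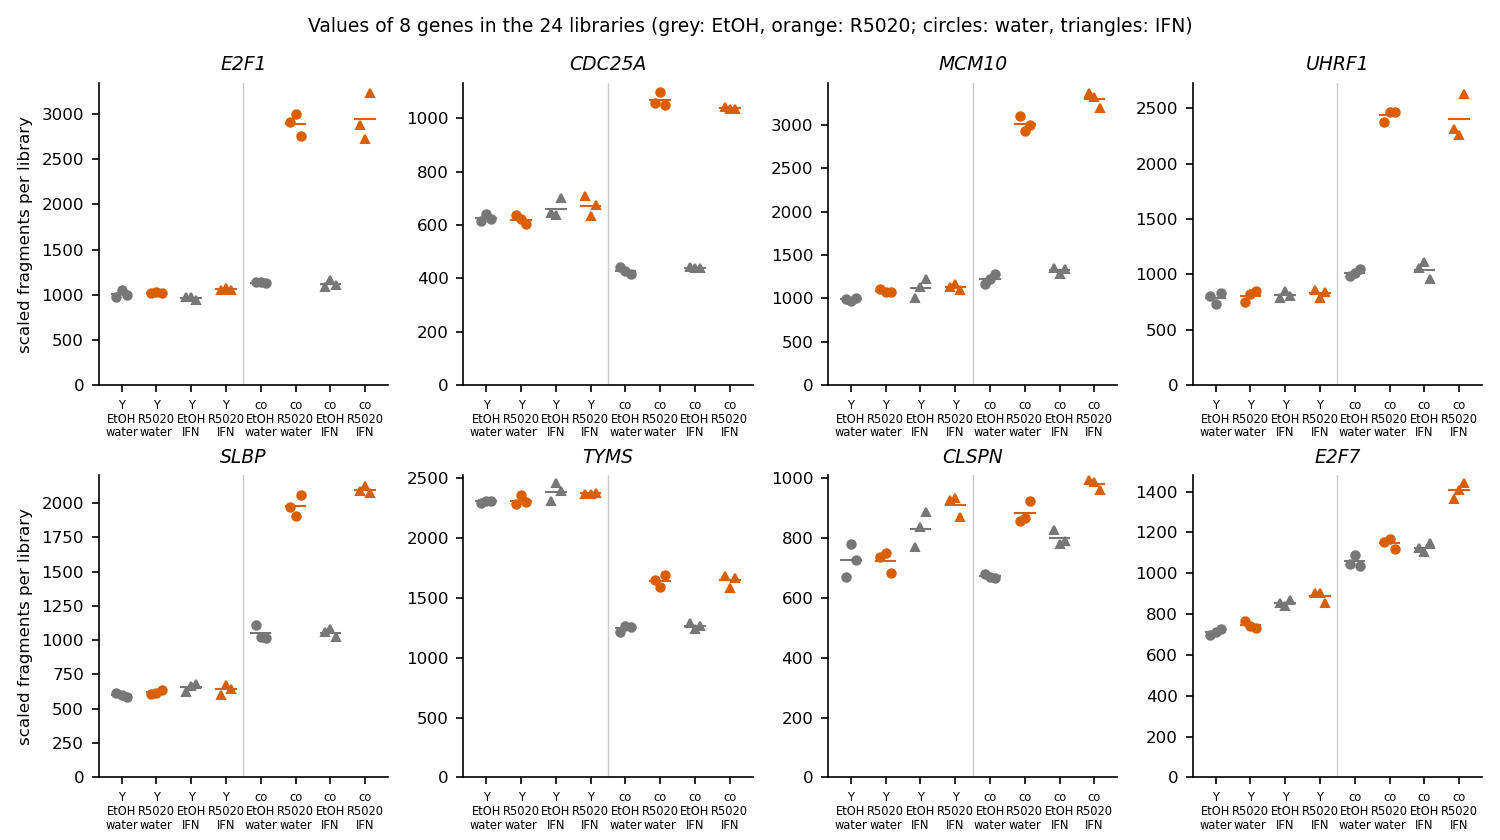
Scaled fragments (y axis, from 0) of 8 genes in each of the 24 libraries, 1 point per library and a line at each group mean, with the 8 groups along the x axis (Y and co are T47D-Y and T47D-co). E2F1, CDC25A, MCM10, UHRF1 and SLBP are high in the 6 T47D-co libraries given R5020, TYMS is highest in T47D-Y, and CLSPN and E2F7 are also higher in several groups given IFN.

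The rise with R5020 was also present in T47D-co cells pretreated with IFN. There 43 of 48 genes were called higher and 0 lower, against 58.2% of all entries called (27.5% higher and 30.6% lower), and the median log2 fold change was 0.41 over the genes and -0.05 over all entries. All 43 were among the 46 called with water. CDT1 (0.20 ± 0.10), CDC7 (0.16 ± 0.10), POLD1 (0.06 ± 0.08), POLE (0.03 ± 0.03) and CHAF1B (0.02 ± 0.05) were not called. E2F1 led again: it held 1081, 1166 and 1109 scaled fragments with EtOH and IFN and 2878, 2730 and 3230 with R5020 and IFN, a change of 1.39 ± 0.05. MCM10 rose by 1.31 ± 0.05, CDC25A by 1.24 ± 0.05, UHRF1 by 1.20 ± 0.06 and CCNE1 by 1.04 ± 0.12. The medians over the 48 genes, taken against the mean of T47D-co with EtOH and water, were 0.495, 0.46 and 0.483 in the 3 libraries with R5020 and water and 0.541, 0.494 and 0.52 in those with R5020 and IFN. They were -0.00327, -0.00866 and 0.0212 with EtOH and water and 0.0615, 0.0435 and 0.0392 with EtOH and IFN. The EtOH libraries with IFN thus lay slightly above those with water, and the R5020 libraries far above both. Of the luminal markers 6 of 7 were called lower here too (median -0.56) and EPCAM higher (0.09), which neither other scaling kept. CSF1R (0.56) and the entry of CD68 (0.19) were called higher, but neither after total-fragment scaling and only CSF1R after quantile normalization. Under total-fragment scaling the median of all entries was -0.16 and POLE was called lower (-0.08) beside 40 genes higher. Under quantile normalization POLE was called lower as well, beside 41 higher. Over all entries total-fragment scaling gave 4374 higher and 7814 lower, and quantile normalization 5112 and 6473.

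The difference between the R5020 effects with IFN and with water was called for 0 of the 48 genes in T47D-co (limma), against 1.01% of all entries, and 6 genes had an unadjusted p under 0.05. The 95% intervals of the difference lay within ±0.5 for 47 of 48 genes, over a span of -0.496 to 0.524, so smaller differences stay possible. E2F7 came nearest, with a larger R5020 effect with IFN by 0.21 ± 0.05 (limma adjusted p = 0.0589). It passed with a stricter filter, with precision weights, with summed loci and without T47D-co EtOH IFN replicate 3. With summed loci CCNE2 (0.17, adjusted p = 0.0277) passed too. E2F7 held 1046, 1092 and 1037 scaled fragments in the EtOH libraries of T47D-co given water and 1154, 1167 and 1118 in the R5020 libraries. In T47D-co given IFN the corresponding values were 1126, 1102 and 1147, then 1365, 1410 and 1443.

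In T47D-Y R5020 gave no called change in any of the 48 genes. With water 0 of 48 were called (limma), against 0.218% of all entries, and 2 had an unadjusted p under 0.05. With IFN 0 of 48 were called, against 0.298% of all entries, and 5 had an unadjusted p under 0.05. The medians were 0.03 and 0.02. All 48 intervals of each comparison lay within ±0.5, and the highest bound with water was 0.40, for ORC6 (0.26 ± 0.07, adjusted p = 0.313). ORC6 held 189.2, 203.3 and 218.1 scaled fragments with EtOH and 245, 247.8 and 237.2 with R5020, which did not overlap. Over the 12 T47D-Y libraries E2F1 ran from 943.5 to 1078 (median 1018), CDC25A from 604.4 to 709.5 (median 637.1), MCM10 from 974.4 to 1228 (median 1089), and UHRF1 from 731.3 to 856.2 (median 814.8). PGR, which is not one of the 48, was called lower with R5020 in T47D-Y (-0.57 with water and -0.53 with IFN).

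The R5020 effect itself differed between the lines. With water it was larger in T47D-co for 40 of 48 genes and smaller for 0 (limma interaction, adjusted p under 0.05), against 44.6% of all entries called (21.6% higher and 23.0% lower), with a median difference of 0.48. The largest were those of CDC25A (1.33 ± 0.07), E2F1 (1.32 ± 0.07) and UHRF1 (1.23 ± 0.09). The 8 genes whose difference was not called were CDT1 (0.32 ± 0.14), CDC7 (0.29 ± 0.14), POLD1 (0.24 ± 0.11), E2F8 (0.17 ± 0.09), PRIM1 (0.10 ± 0.06), E2F7 (0.05 ± 0.05), POLE (0.04 ± 0.04) and CHAF1B (-0.09 ± 0.07). Without the 4 libraries of low mitochondrial share 36 genes were called, the 3 named here among them, and CHEK1, DBF4, GINS3, LIG1 and RFC5 were lost. Total-fragment scaling gave 32 larger and 1 smaller (CHAF1B), and quantile normalization 33 and 1 (POLE). Over all entries the first gave 3178 larger and 6184 smaller, and the second 3980 and 4890.

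Without treatment the lines differed gene by gene, not in 1 direction. In EtOH and water, 19 of 48 genes were higher in T47D-co and 19 lower, against 63.1% of all entries called (29.7% higher and 33.4% lower), with a median difference of -0.06. TYMS was the most different: it held 2293, 2307 and 2310 scaled fragments in T47D-Y and 1212, 1263 and 1256 in T47D-co, a log2 difference of -0.89 ± 0.03. E2F2 held 951.1, 1010 and 952 in T47D-Y and 531.2, 520.3 and 599.2 in T47D-co, a difference of -0.82 ± 0.06. SLBP went the other way, with 615.6, 600.1 and 588.2 in T47D-Y and 1113, 1025 and 1015 in T47D-co, a difference of 0.80 ± 0.05. By role, 7 of 12 helicase genes were lower in T47D-co and 2 higher, among them MCM4 (-0.72 ± 0.03) and MCM10 (0.31 ± 0.05). Of the clamp loader, RFC4 was higher (0.79 ± 0.04) and RFC2 lower (-0.38 ± 0.05). The deposited scale sets the lines' libraries apart so that the median of all entries moves to -0.27. On it the split of the 48 was 7 higher and 29 lower, against 3613 higher and 9873 lower over all entries. With EtOH and IFN it was 19 higher and 21 lower on the common scale, against 62.6% of all entries called (29.6% higher and 33.0% lower).

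After R5020 most of these genes were higher in T47D-co. With R5020 and water 38 were higher and 6 lower, against 68.5% of all entries (32.0% higher and 36.6% lower), and the median difference was 0.46. With R5020 and IFN 37 were higher and 6 lower, against 68.3% of all entries (32.5% higher and 35.8% lower). Of the 19 genes that had been lower in T47D-co without R5020, 11 were higher with it: CDC25A, E2F3, FEN1, GINS2, GINS4, MCM3, MCM5, MCM6, POLA1, POLE2 and RFC3. CDC25A is the clearest case, at -0.55 ± 0.05 with EtOH and 0.78 ± 0.05 with R5020. Another 3 (CCNE1, GINS3 and RFC2) were no longer called, and 5 stayed lower (E2F2, MCM4, POLE, PRIM1 and TYMS). The 19 that had been higher were all higher with R5020 too, and 8 that had not been called became higher (CDC45, CDC6, CLSPN, E2F8, MCM2, MCM7, ORC1 and RRM2). The comparisons with EtOH and with R5020 share no libraries. TYMS in T47D-co with R5020 (1592 to 1689) remained below every T47D-Y library (2280 to 2460).

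**Figure D3:**
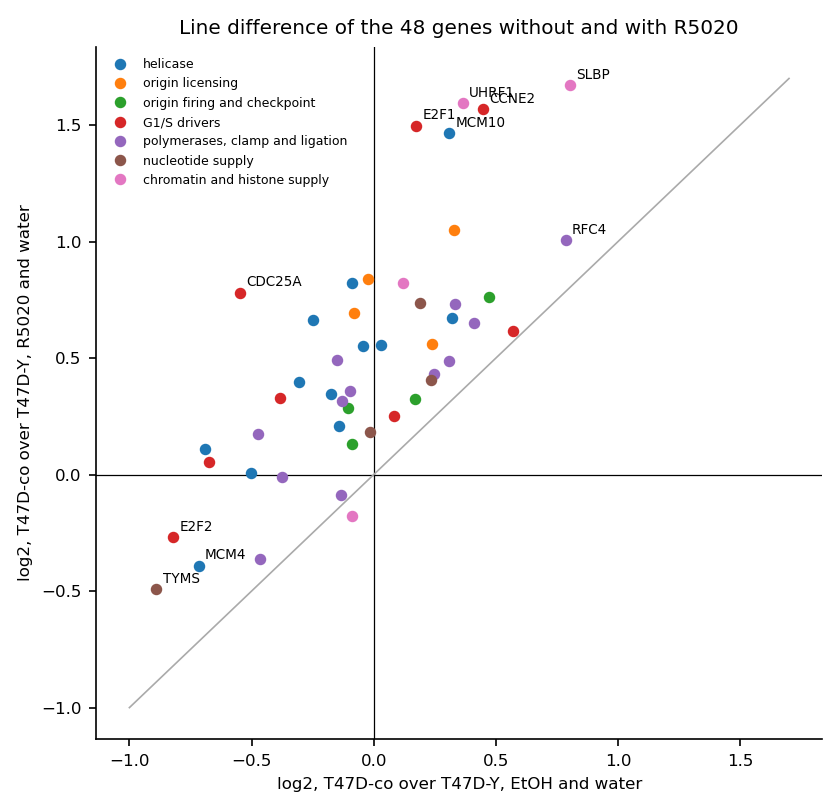
Log2 difference between T47D-co and T47D-Y (both with water) in libraries given EtOH (x axis) and R5020 (y axis), 1 point per gene, coloured by role, with the line of equal values in grey. Points scatter on both sides of 0 along x, from -0.89 (TYMS) to 0.80 (SLBP), and most lie above 0 along y, up to 1.67 (SLBP).

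Few of the 48 genes were called with IFN, and the changes were small, though most leaned upward on the common scale. In T47D-co 1 gene was called higher and 0 lower with EtOH, against 1.00% of all entries called, 0.570% higher and 0.432% lower. With R5020 6 were higher and 0 lower, against 11.3% (7.57% and 3.69%). In T47D-Y 6 were higher and 1 lower with EtOH, against 4.44% (2.51% and 1.93%). With R5020 5 were higher and 1 lower, against 4.77% (3.08% and 1.69%). The medians of the 48 genes were 0.04, 0.06, 0.07 and 0.05 in this order, against 0.00, 0.02, 0.00 and 0.00 for all entries. The change was positive in 38, 37, 42 and 39 genes. An unadjusted limma p under 0.05 was found for 14, 18, 20 and 17 genes, against 1773, 5262, 3422 and 3280 of the 20162 entries. IFN libraries all lay above water libraries in 14, 16, 14 and 17 genes, against 6.15, 17.2, 11.4 and 12.1% of all entries. They all lay below in 1, 2, 3 and 2 genes, against 6.83, 9.9, 10.2 and 9.92%. Over the 4 comparisons 13 genes were called at least once, 3 of them (CLSPN, E2F7 and RRM2) in 3 comparisons and 0 in all 4. The water libraries form a different block of the deposited table than the IFN libraries. The factors behind the deposited values have a geometric mean of 0.996 to 0.999 in each block, so they do not level the blocks against each other. On the deposited scale the direction turns together with that of all entries. There 0 genes were higher and 24 lower in T47D-co with EtOH, 1 and 23 with R5020, and 0 and 48 in T47D-Y with either. The medians of all entries were then -0.18, -0.16, -0.47 and -0.48. Of the 20162 entries, 125, 160, 115 and 100 were called higher and 8308, 7041, 14615 and 14691 lower.

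E2F7 (chr12:77415027-77459360), the atypical repressor, rose by 0.29 ± 0.04 with IFN in T47D-co given R5020, by 0.26 ± 0.04 in T47D-Y given EtOH and by 0.25 ± 0.04 in T47D-Y given R5020. On the deposited scale it was called lower in both T47D-Y comparisons. In T47D-Y it held 697.4, 713 and 726.5 scaled fragments without treatment and 853.7, 841.3 and 869.8 with IFN, and 765.3, 743.9 and 734.4 with R5020 against 905.1, 903.2 and 854.4 with both. The IFN libraries were higher throughout. CLSPN rose by 0.25 ± 0.06 in T47D-co given EtOH, where it held 827.3, 781.6 and 790.9 with IFN against 679.2, 670.2 and 668.3, and by 0.33 ± 0.06 in T47D-Y given R5020, where it held 928.9, 932.9 and 872.3 with IFN against 736.6, 750.7 and 683.1. In T47D-Y given EtOH (0.20 ± 0.06) the libraries overlapped: 772.1, 836.1 and 886.1 with IFN against 670.1, 780.8 and 726.3. The call of CLSPN in T47D-co was lost in 5 of 6 fits that left out 1 library (0.23 to 0.26, adjusted p = 0.0508 to 0.112), all but that without T47D-co EtOH IFN replicate 2. In T47D-Y with EtOH it was lost in 4 of 6 (0.14 to 0.20, adjusted p = 0.0831 to 0.234), those without T47D-Y EtOH water replicate 1 or 3 or T47D-Y EtOH IFN replicate 2 or 3, and with either other scaling (0.17 and 0.19). Without the 4 libraries of low mitochondrial share neither was called (0.25, adjusted p = 0.0566, and 0.14, adjusted p = 0.277).

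RRM2, the regulated subunit of ribonucleotide reductase, held 2856, 2855 and 2827 scaled fragments in T47D-Y with R5020 and 3387, 3287 and 3238 with IFN added, a change of 0.21 ± 0.04. It rose by 0.19 ± 0.04 in T47D-Y given EtOH and by 0.15 ± 0.04 in T47D-co given R5020, where the call was lost after quantile normalization (0.09) and without T47D-co R5020 IFN replicate 1 (0.12). PCNA in T47D-Y given EtOH held 1832, 2060 and 2101 with water and 2272, 2291 and 2277 with IFN, a change of 0.19 ± 0.04. Its lowest library, replicate 1 with water, is one of low mitochondrial share, and without those libraries the change was 0.13 (adjusted p = 0.0509). In T47D-co given R5020, POLA1 held 6007, 5871 and 6150 with water and 6907, 7111 and 6696 with IFN (0.20 ± 0.03), and POLE2 held 1112, 1074 and 1155 against 1288, 1339 and 1249 (0.21 ± 0.06). Both were separated between the groups, and the call of POLE2 was lost without T47D-co R5020 water replicate 2 or T47D-co R5020 IFN replicate 2 (0.19 each, adjusted p = 0.0806 and 0.0813). The other genes called in T47D-co given R5020 were E2F3 and RFC4 (both 0.14 ± 0.04). Neither was called after total-fragment scaling (0.12 each), quantile normalization (0.09 and 0.11) or with summed loci (0.09 and 0.03). Without T47D-co R5020 water replicate 2 or T47D-co R5020 IFN replicate 2 neither was called either, and RFC4 was also lost without replicate 1 of either group. In these 3 libraries with R5020 and IFN, abundant small and nuclear RNAs (the RN7 genes, MALAT1 and RPPH1) took 4.42 to 4.77% of fragments, against 5.16 to 5.82% in the other 9 of T47D-co, and the part of this in the result was not tested. The entry of PRIM1, merged with NACA, was the only one called lower, by -0.16 ± 0.04 with EtOH and -0.15 ± 0.04 with R5020, both in T47D-Y. With R5020 the call was lost without the 4 libraries of low mitochondrial share (-0.12, adjusted p = 0.427) and in 4 of 6 fits that left out 1 library, those without T47D-Y R5020 water replicate 1 or 2 or T47D-Y R5020 IFN replicate 1 or 3 (-0.13 to -0.15). With EtOH it was lost without T47D-Y EtOH water replicate 2 or T47D-Y EtOH IFN replicate 3 (-0.14 each).

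The counts for IFN rest on few libraries. Without the 4 libraries of low mitochondrial share, 0 genes were called in T47D-co with EtOH and 4 in T47D-Y with EtOH. Of all 20162 entries 128 and 514 were then called, against 202 and 896 with all libraries. In T47D-Y with R5020 only 1 water library is left, and the median of the 48 genes was 0.05. Without T47D-Y R5020 water replicate 2 alone, 3 were called in T47D-Y with R5020, and without T47D-co R5020 water replicate 2, 3 were called in T47D-co with R5020. Over all entries 550 and 1215 were called in these 2 fits, against 961 and 2269 with all libraries. In T47D-Y with R5020 total-fragment scaling and quantile normalization each gave 3 higher and 2 lower. Over all entries the first gave 238 higher and 665 lower, and the second 442 and 458. The IFN effect with EtOH was not shown to differ between the lines for any of the 48 genes (limma, 0 called, against 0.377% of all entries, and 5 with an unadjusted p under 0.05). Of the intervals of that difference 45 of 48 lay within ±0.5.

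**Figure D4:**
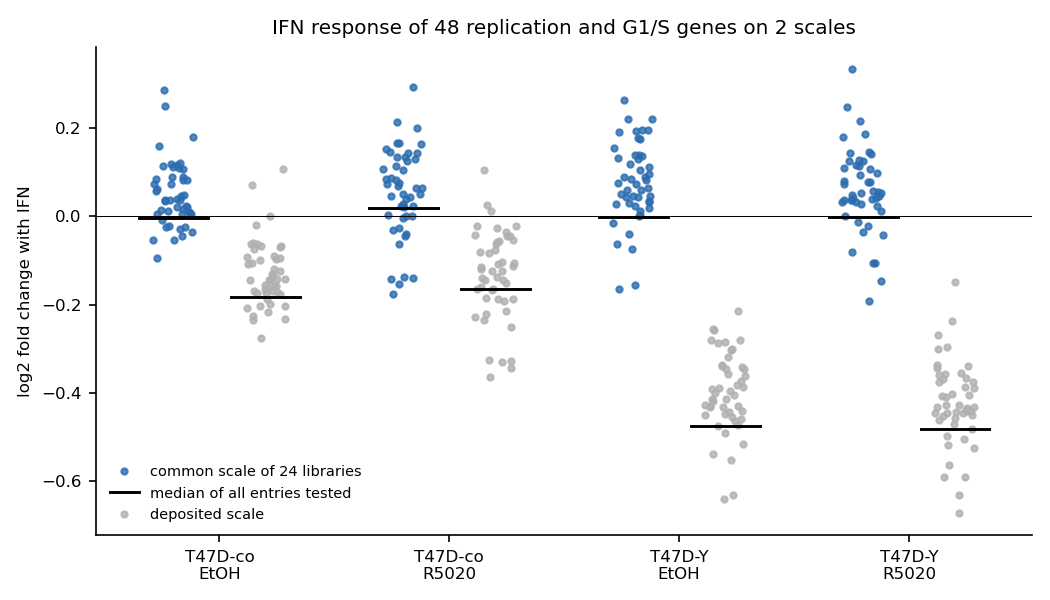
Log2 fold change with IFN (y axis) of the 48 genes in 4 comparisons, on the common scale (blue) and the deposited scale (grey), 1 point per gene, with black lines at the median of all entries tested. On the common scale most points lie a little above 0, with medians of 0.04 to 0.07, and on the deposited scale they move below 0 together with all entries.

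Other replication genes, a list of 43 of which 42 were tested, also tended upward with R5020 in T47D-co. With water 29 were called higher, 4 lower and 9 were not called, with a median of 0.27 (24 higher and 5 lower after total-fragment scaling). Of all 20162 entries 26.6% were called higher and 30.0% lower (4215 and 7535 entries after total-fragment scaling). The largest rises were those of MCMBP, which binds the MCM complex (0.67 ± 0.04), the replisome adaptor WDHD1 (0.67 ± 0.05), the firing factor TICRR (0.66 ± 0.04) and GMNN, the geminin that inhibits CDT1 (0.59 ± 0.06). ORC4 (-0.21 ± 0.05), ORC2 (-0.15 ± 0.05), the helicase RECQL4 (-0.22 ± 0.07) and POLD4 (-0.63 ± 0.06, in an entry with CLCF1) were lower. Subunits of the origin complex thus moved in both directions, ORC1, ORC6, ORC5 (0.45 ± 0.05) and ORC3 (0.22 ± 0.04) up and ORC2 and ORC4 down, also after total-fragment scaling and quantile normalization. CCNA2, the S-phase cyclin A2, was not called with water (0.02 ± 0.04) and rose with IFN (0.16, adjusted p = 0.0018). In T47D-Y limma called 0 of the 42 with R5020, and 2 had an unadjusted p under 0.05 with water and 2 with IFN.

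Of 18 regulators of E2F and G1 exit, 16 were tested. With R5020 in T47D-co and water 12 were called higher, 1 lower and 3 not, with a median of 0.18, but 7 higher and 3 lower after total-fragment scaling and 9 and 2 after quantile normalization. Among all 20162 entries 26.6% were called higher and 30.0% lower. Total-fragment scaling gave 4215 entries higher and 7535 lower, and quantile normalization 5064 and 6174. The D cyclin CCND1 (1.93 ± 0.04) and its kinase CDK6 (1.25 ± 0.04) rose, and so did the kinase inhibitors CDKN1C (2.12 ± 0.25, at 10.67 to 79.28 scaled fragments over all libraries), CDKN1B (0.55 ± 0.05) and CDKN1A (0.52 ± 0.06). These 5 were called higher with each of these scalings. Positive and negative regulators of the G1/S step were thus both higher in the same libraries as the 46 replication genes. CDKN2D, an inhibitor of CDK4 and CDK6, was lower (-0.66 ± 0.18), and RB1, the retinoblastoma gene, was not called (0.04 ± 0.05). In T47D-Y limma called 0 of the 16 with R5020, and 2 had an unadjusted p under 0.05 with water and 2 with IFN.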

How the data were processed

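RNA was extracted with Trizol, per the labels' protocols, and TopHat2 2.0.12, Cufflinks 2.2.1 and build GRCh37 (hg19) are named per the submitters' processing notes. The deposited table holds 25541 entries by 24 libraries with no stated unit. Its values were treated as a signal: in each library 97.4 to 98.6% of the deposited values of genes alone at their locus are whole multiples of 1 step (tolerance 0.05 of a step), but only 60.1 to 63.4% of all values, so no count test was used. The steps (0.637 to 1.36) had been set within 4 blocks, 1 per line and IFN state. These factors were multiplied back, and a single set of median-of-ratios factors for the 24 libraries took their place (14201 genes with a mean of at least 50). Another 25 entries with repeated symbols and 1 row with no locus were left out.

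In R 4.3.3, limma 3.58.1 (variance trend, 16 residual and 8.05 prior degrees of freedom) was fitted to log2(scaled fragments + 1) for 8 group means, on 20162 entries with at least 10 scaled fragments in 3 libraries, and tested on simulated data. Calls are at a two-sided Benjamini-Hochberg adjusted p under 0.05. Fold changes are on this log2 scale, with SE, and a 95% interval where given. Starts in the file count from 0 and are printed from 1. Values in every library are given for the leading called members of each role and comparison. Promoters came from RefSeq, gene types and exon lengths from GENCODE v29. The 48 members and the gene lists were chosen with earlier results of these data known. Alternatives were other scalings, filters, pseudocount, weights, summed loci, a replicate block and leaving out libraries. The 41 entries with no other protein-coding gene were set apart after the data were seen. The results of 1 marker list are not reported here.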

Additional observations from a re-analysis of the deposited data

Results flagged for a closer look

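The R5020 effect differed between the lines by the interaction test (limma, Benjamini-Hochberg adjusted p under 0.05). With water it was larger in T47D-co for 40 of the 48 replication and G1/S genes. The difference in log2 fold change was 1.33 for CDC25A, 1.32 for E2F1 and 1.23 for UHRF1.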

How the results depend on the processing

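Of the 149 calls of member genes for R5020, IFN and the R5020 interactions, a stricter filter ended 0, no filter, precision weights (voom) and the replicate block 2 each, fitting only the libraries compared 6, leaving out the 4 libraries of low mitochondrial share 12, quantile normalization 20 and total-fragment scaling 24. Summed loci ended 6 and turned 2, both of RFC5. For IFN, among genes with values given in every library, the deposited scale ended 3 calls in T47D-co, those of CLSPN with EtOH (0.07) and of POLE2 (0.03) and POLA1 (0.01) with R5020. It reversed 6, all in T47D-Y: E2F7 (-0.21), CLSPN (-0.28) and PCNA (-0.28) with EtOH, and CLSPN (-0.15), E2F7 (-0.24) and RRM2 (-0.27) with R5020. The steps of that scale were set separately for water and IFN libraries.

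The number of the 48 genes called changed as follows. On the deposited scale IFN gave 24 instead of 1 in T47D-co with EtOH and 24 instead of 6 with R5020. In T47D-Y it gave 48 instead of 7 and 6 with EtOH and R5020, and the line by IFN interaction gave 41 instead of 0. Of the 20162 entries, 8433, 7201, 14730, 14791 and 9531 were called on that scale in this order. Its mean log2 shift from the common scale was 0.28 in T47D-Y water and -0.20 in T47D-Y IFN libraries. In T47D-co the shifts were 0.05 and -0.13. Quantile normalization gave 3 instead of 6 for IFN in T47D-co with R5020, with 1406 of all entries called instead of 2269. Without the 4 libraries of low mitochondrial share IFN gave 0 in T47D-co and 4 in T47D-Y, both with EtOH. Over all entries 128 and 514 were then called. The R5020 by IFN interaction in T47D-co gave 1 with a stricter filter, 1 with precision weights and 2 with summed loci, instead of 0. The deposited factors do not level the 4 blocks against each other. The causes of the other changes were not tested.

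Leaving out 1 library at a time gave 44 to 46 for R5020 in T47D-co with water, 42 to 44 with IFN and 0 in T47D-Y. For IFN it gave 0 to 1 and 3 to 9 in T47D-co with EtOH and R5020, and 5 to 7 and 3 to 6 in T47D-Y. The line differences gave 33 to 39, 37 to 39, 44 to 45 and 42 to 44, the line by R5020 interaction 35 to 40, R5020 by IFN 0 to 1 and line by IFN 0.

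Replicate numbers did not pair the libraries: over 36 same-numbered pairs the deviations from the group means correlated at -0.07 to 0.06, and 5 of 24 libraries correlated best with their own number. With the replicate block, 46 and 43 genes were called for R5020 in T47D-co with water and IFN, and 33 for the line difference with EtOH and water, against 38 without it.

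With 3 libraries per group the 95% intervals of single comparisons were 0.107 to 0.531 wide on the log2 scale, and values of merged entries or shared loci depend on how fragments were divided.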
